A study of Mus musculus with 6 samples.

Results

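Hepatic mRNA of 10 genes of Wnt/β-catenin signalling and pericentral zonation was compared between DUhTP (marathon) mice and unselected DUC controls: Ctnnb1, Apc, Axin2, Lgr5, Tbx3, Lect2, Glul, Oat, Rhbg and Slc1a2. Members were all probe sets of the array whose only annotated gene symbol is one of these names. This gave 17 probe sets for 10 genes, out of 22626 probe sets tested and 12393 genes with a probe set of a single symbol. The DUhTP line was selected over many generations for high performance on a treadmill, and DUC is the line kept from the same base without selection. Both are non-inbred and go back to a cross of the outbred stocks NMRI orig., Han:NMRI, CFW and CF1 with the inbred CBA/Bln, AB/Bln, C57BL/Bln and XVII/Bln. Untrained male mice were sampled at an age of 70 days, and each line was represented by 3 arrays of whole liver RNA. The methods describe the arrays as pools of mice and the sample labels as 1 mouse each, so p-values measure only the spread between these arrays, which may understate that among animals. The values are PLIER intensities in arbitrary units, which are compared between lines for 1 probe set at a time and not between probe sets. Where the intensities of a list are summed, its brightest probe sets weigh most, and the sum describes these more than the list.

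In the liver lobule, endothelial cells around the central vein release Wnt ligands and R-spondins, which stabilise β-catenin in the neighbouring hepatocytes. β-Catenin with its TCF/LEF partners then maintains the pericentral programme, which includes glutamine synthesis from ammonia that escaped the urea cycle of periportal hepatocytes. Without the Wnt signal, β-catenin is bound by a complex of APC and axin and is degraded. Array values of whole liver cannot tell a smaller pericentral zone from less mRNA per pericentral cell.

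Across the members, 3 genes had higher and 1 gene had lower mRNA abundance in DUhTP mice. Lect2, Rhbg and Slc1a2 rose between 2.04-fold and 2.33-fold, Axin2 was lower on 1 very dim probe set, and the signals of Glul, Ctnnb1, Apc, Tbx3, Lgr5 and Oat did not pass the test. A probe set was called at an adjusted p under 0.05 in limma's moderated unpaired test, with Benjamini-Hochberg adjustment over all 22626 probe sets. In this test 4 of the 17 member probe sets were called (23.5%), against 2.41% of all probe sets. Higher in DUhTP mice were 3 of 17, against 1.36% of all probe sets, and lower was 1 of 17, against 1.05%. All 4 also had a fold change (FC) over 2, and 1.45% of all probe sets were called and had such an FC. Counted by gene, 4 of 10 were called, against 3.32% of the 12393 genes. The median log2 fold change (log2FC, DUhTP minus DUC) of the member probe sets was -0.08, beside -0.02 for all probe sets. The genes were listed with earlier results of these arrays known, and the counts describe them without serving as a test of the list.

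**Figure D1:**
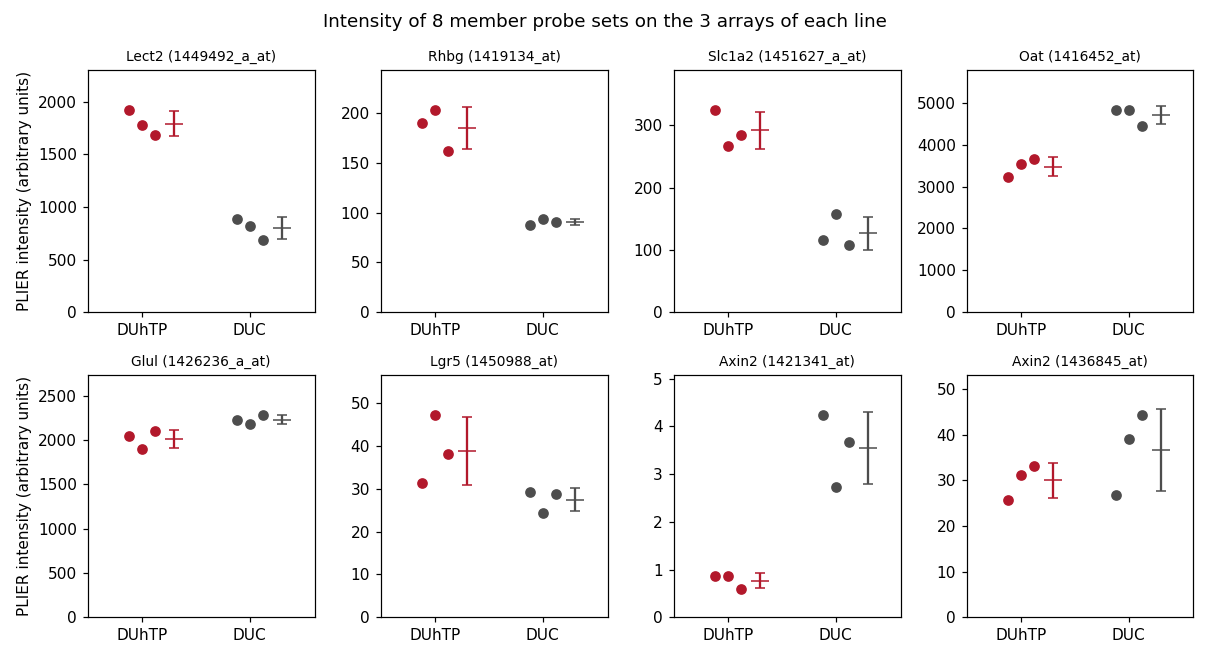
PLIER intensity (arbitrary units, axes from 0) of 8 member probe sets on the 3 DUhTP and the 3 DUC arrays, each point 1 array and each bar the mean ± SD. The DUhTP arrays lie above all DUC arrays for Lect2, Rhbg, Slc1a2 and Lgr5 and below them for Oat, Glul 1426236_a_at and Axin2 1421341_at, while Axin2 1436845_at overlaps.

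Lect2 encodes a chemotactic protein secreted by hepatocytes and is known in mouse liver as a target of β-catenin. Its single probe set, 1449492_a_at, read 1922, 1779 and 1680 in the DUhTP arrays, against 890, 819 and 685 in the DUC arrays. Every DUhTP array lay well above every DUC array. DUhTP mice averaged 1793 ± 121 and DUC mice 798 ± 104 (SD, n = 3 arrays each), for a log2FC of 1.17 ± 0.14 (± standard error, FC 2.26, adjusted p = 0.0237 in limma). With 16 added to every intensity, which damps differences among dim probe sets, the FC was 2.23 and the adjusted p 7.15e-04.

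Slc1a2, which encodes a high affinity glutamate transporter and marks the hepatocytes next to the central vein, had the largest FC among the higher members. Probe set 1451627_a_at read 325, 268 and 284 in DUhTP arrays, against 115, 157 and 108 in DUC arrays. The lines did not overlap, and the highest DUC array was replicate 2. DUhTP mice averaged 292 ± 29.4 and DUC mice 127 ± 26.6 (SD, n = 3 arrays each). The log2FC was 1.22 ± 0.18 (± standard error, FC 2.33, adjusted p = 0.0356 in limma), and with 16 added the FC was 2.18 (adjusted p = 0.00171).

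Rhbg, an ammonium transporter of the Rhesus family, takes part in the uptake of ammonia by pericentral hepatocytes. Probe set 1419134_at read 190, 203 and 162 in DUhTP arrays, against 87.5, 93.7 and 90.4 in DUC arrays. The lowest DUhTP array stood clearly above the narrow range of the DUC arrays. DUhTP mice averaged 185 ± 21.1 and DUC mice 90.5 ± 3.11 (SD, n = 3 arrays each), for a log2FC of 1.03 ± 0.13 (± standard error, FC 2.04, adjusted p = 0.0251 in limma), and with 16 added the FC was 1.88 (adjusted p = 0.00152).

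Lect2 and Slc1a2 are shown here with the sequence around a RefSeq transcription start, because they rose together and because β-catenin acts through TCF/LEF factors, whose recognition sequence contains the core CTTTGA. Oat is shown beside them as a member with values in the other direction. The 3 were picked with their matches to this core known. The windows hold 250 bases before to 50 bases after a start in GRCm38.p6, 5′ to 3′ in the direction of transcription, and capitals mark each CTTTGA on either strand, which reads TCAAAG on the opposite one.
Lect2 (chr13:56548489-56548788, minus strand): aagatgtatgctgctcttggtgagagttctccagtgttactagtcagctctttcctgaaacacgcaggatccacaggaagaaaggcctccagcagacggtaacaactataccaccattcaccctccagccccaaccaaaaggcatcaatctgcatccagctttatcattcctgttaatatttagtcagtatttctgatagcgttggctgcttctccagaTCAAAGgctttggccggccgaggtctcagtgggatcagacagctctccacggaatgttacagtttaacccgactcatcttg
Slc1a2 (chr2:102706188-102706487, plus strand): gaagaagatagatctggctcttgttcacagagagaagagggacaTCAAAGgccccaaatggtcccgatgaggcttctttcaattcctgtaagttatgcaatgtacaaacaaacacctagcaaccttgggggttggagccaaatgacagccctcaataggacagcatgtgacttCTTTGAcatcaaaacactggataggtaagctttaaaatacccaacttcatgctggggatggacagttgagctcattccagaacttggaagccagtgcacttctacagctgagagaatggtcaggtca
Oat (chr7:132576349-132576648, minus strand): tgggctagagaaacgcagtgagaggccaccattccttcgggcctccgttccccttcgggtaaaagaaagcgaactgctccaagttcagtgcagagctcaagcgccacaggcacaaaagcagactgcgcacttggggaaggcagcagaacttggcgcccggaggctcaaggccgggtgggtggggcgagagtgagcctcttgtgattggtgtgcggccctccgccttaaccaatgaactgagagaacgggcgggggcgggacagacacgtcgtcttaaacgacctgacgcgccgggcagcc

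The Slc1a2 window belongs to a start that lies inside the annotated gene. RefSeq windows were found for 6 of the 10 member genes: Axin2, Ctnnb1, Glul, Lect2, Oat and Slc1a2. Lect2 held 1 match and Slc1a2 held 2, while the windows of Glul, Oat, Axin2 and Ctnnb1 held 0. Of all 32851 RefSeq windows of the same length, 16% held at least 1 match and 1.73% at least 2. A match is a description of the letters and does not show that a factor binds there. Rhbg, which also rose, had no window, and a link between matches and the changes in mRNA was not tested.

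Glul, the glutamine synthetase and the classical marker of the innermost pericentral hepatocytes, did not pass on either of its 2 probe sets, with an unadjusted p above 0.05 on both. Probe set 1426236_a_at read 2040, 1897 and 2096 in DUhTP arrays, against 2229, 2178 and 2277 in DUC arrays, so that the lines did not overlap although they lay close. The log2FC was -0.15, with a 95% interval from -0.40 to 0.10 (adjusted p = 0.457 in limma). Probe set 1426235_a_at read 1845, 2107 and 1606 in DUhTP arrays, against 2083, 2007 and 1865 in DUC arrays. Here the lines overlapped, with a log2FC of -0.11 and an interval from -0.45 to 0.23 (adjusted p = 0.711). The intervals leave out a change of the size seen for Lect2, Slc1a2 and Rhbg in either direction.

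To take out any scaling shared by all probe sets of an array, the log2 intensity of Glul on 1426236_a_at was subtracted within each array from that of another member. The difference of this measure between DUhTP and DUC mice was 1.32 ± 0.15 for Lect2, 1.37 ± 0.20 for Slc1a2 and 1.17 ± 0.14 for Rhbg (± standard error, n = 3 arrays per line). For Oat it was -0.29 ± 0.09. No test is given, because Lect2, Slc1a2 and Rhbg lay fully above and this Glul probe set fully below the DUC arrays, so that their ratios had to separate. The other Glul probe set overlapped between the lines and was not used here.

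Oat, the ornithine aminotransferase that links ornithine with glutamate semialdehyde, read 3227, 3536 and 3668 in DUhTP arrays on 1416452_at, against 4828, 4820 and 4453 in DUC arrays. All DUhTP arrays lay below all DUC arrays. DUhTP mice averaged 3477 ± 226 and DUC mice 4700.4 ± 214 (SD, n = 3 arrays each), with an FC of -1.35, a log2FC of -0.44 and a 95% interval from -0.70 to -0.17. The adjusted p was 0.104 in limma, so Oat did not pass. It passed with 16 added (adjusted p = 0.0381), without the dimmest 33.3% of the probe sets (0.0388) and with limma-trend (0.00534). With 16 added, 4 of the 17 member probe sets passed, against 8.62% of all probe sets, and they belonged to Lect2, Rhbg, Slc1a2 and Oat.

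**Figure D2:**
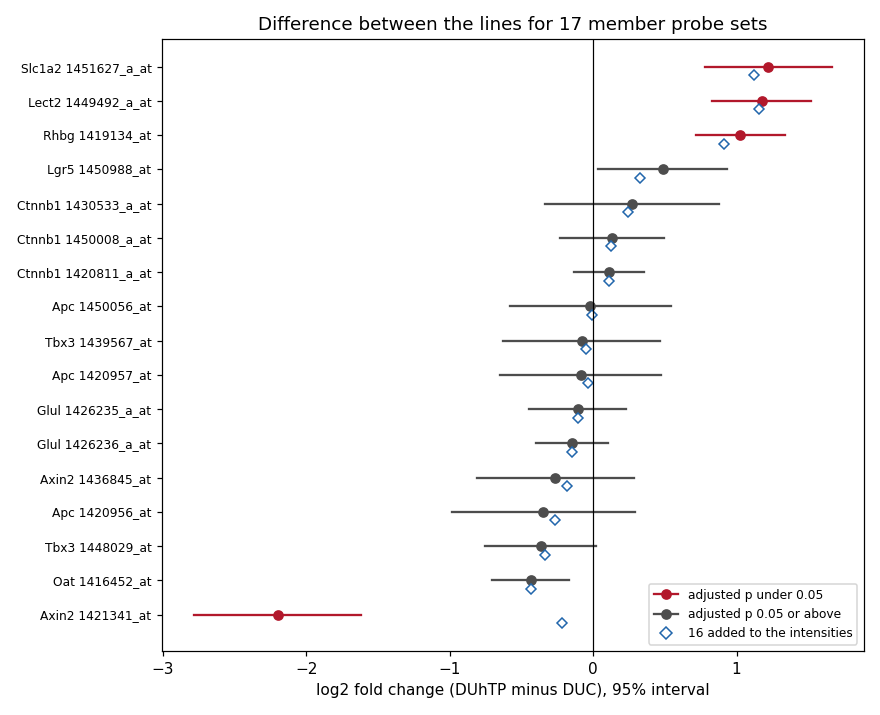
Log2FC (DUhTP minus DUC) of the 17 member probe sets with its 95% interval from limma, in red where the adjusted p was under 0.05, and as open diamonds the estimate with 16 added to the intensities. Slc1a2, Lect2 and Rhbg lie near 1 on both scales, whereas Axin2 1421341_at moves to -0.22 with 16 added.

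Axin2, a scaffold of the β-catenin destruction complex that is itself induced by Wnt and restrains the pathway, was called lower on 1 of its 2 probe sets. Probe set 1421341_at read 0.870, 0.857 and 0.585 in DUhTP arrays, against 4.23, 2.73 and 3.67 in DUC arrays. The arrays of the lines were separated, but its mean intensity lay at percentile 1.1 of all probe sets, near the lower end of the scale. The log2FC was -2.20 ± 0.24 (± standard error, FC -4.60, adjusted p = 0.0200 in limma). With 16 added it was -0.22 (adjusted p = 0.228), and with limma-trend the adjusted p was 0.179. The brighter probe set 1436845_at read 25.7, 31.1 and 33.2 in DUhTP arrays, against 26.7, 39.0 and 44.2 in DUC arrays. On this one the lines overlapped, with a log2FC of -0.27 and an interval from -0.81 to 0.28 (adjusted p = 0.545).

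β-Catenin itself, encoded by Ctnnb1, was measured by 3 probe sets, none of which passed in limma or had an unadjusted p under 0.05. The brightest, 1420811_a_at, read 2235, 2274 and 2346 in DUhTP arrays, against 2084, 2214 and 2060 in DUC arrays. The lines did not overlap but lay close, with a log2FC of 0.11 and an interval from -0.14 to 0.35 (adjusted p = 0.581). The other Ctnnb1 probe sets, 1430533_a_at and 1450008_a_at, had log2FC values of 0.27 and 0.13 (adjusted p = 0.583 and 0.659), with overlapping lines. For Apc, the scaffold that presents β-catenin for degradation, 1420956_at read 51.6, 38.8 and 75.0 in DUhTP arrays, against 75.2, 68.9 and 59.6 in DUC arrays. The DUhTP arrays enclosed most of the DUC range, and the log2FC was -0.35 with an interval from -0.98 to 0.29 (adjusted p = 0.494). The dimmer Apc probe sets 1420957_at and 1450056_at had log2FC values of -0.09 and -0.02 (adjusted p = 0.864 and 0.971).

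Lgr5, a receptor for R-spondins that marks pericentral hepatocytes, read 31.2, 47.1 and 38.1 in DUhTP arrays on 1450988_at, against 29.2, 24.3 and 28.6 in DUC arrays. The DUhTP arrays were all higher, though replicate 1 lay only slightly above the highest DUC array. The log2FC was 0.48 with an interval from 0.03 to 0.93. At an adjusted p of 0.210 in limma it did not pass, and with 16 added it did not pass either (0.161). Tbx3, a T-box transcription factor induced by β-catenin in liver, read 182, 130 and 164 in DUhTP arrays on 1448029_at, against 217, 190 and 201 in DUC arrays. All DUhTP arrays were lower, with a log2FC of -0.37 and an interval from -0.76 to 0.02 (adjusted p = 0.260). The dim Tbx3 probe set 1439567_at had one of -0.08, with overlapping lines (adjusted p = 0.874). In all, the lines did not overlap in 9 of the 17 member probe sets (52.9%), with DUhTP arrays above in 5 and below in 4, and this was the case for 29.4% of all probe sets.

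As a description of similar profiles, the genes most like Glul on 1426236_a_at over the 6 arrays were Ankrd33b, Gid8 and Tm2d1, with a Pearson correlation of log2 intensities of 0.998, 0.997 and 0.992. For Axin2 on 1436845_at they were Gigyf1, Lgals7 and 2410004B18Rik (0.978, 0.967 and 0.965). These were the highest of 9054 genes compared over only 6 arrays, which share line and array scaling.

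The 3 higher members were followed with 1 array left out at a time. Without an added constant, none of the 17 member probe sets was called by limma without any 1 of the 6 arrays. At an unadjusted p under 0.05 were 5 to 7 of them, the 4 called with all arrays included, against 15.4% to 20.3% of all probe sets in the same fits. Those 4 had been picked for their p on mostly the same arrays. The count over all probe sets then fell to between 1 and 122, against 546 with all arrays. The log2FC values moved little, between 1.07 and 1.26 for Lect2, 1.11 and 1.38 for Slc1a2, 0.96 and 1.12 for Rhbg, and -2.38 and -2.01 for Axin2 1421341_at. With 16 added, a check chosen after seeing the data, Lect2, Rhbg and Slc1a2 passed in 6 of 6 such fits, at an adjusted p of 0.00568, 0.0133 and 0.0151 at most. Oat passed in 0 of 6 of them (adjusted p = 0.0501 to 0.138), as did Axin2 1421341_at (0.289 to 0.424).

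**Figure D3:**
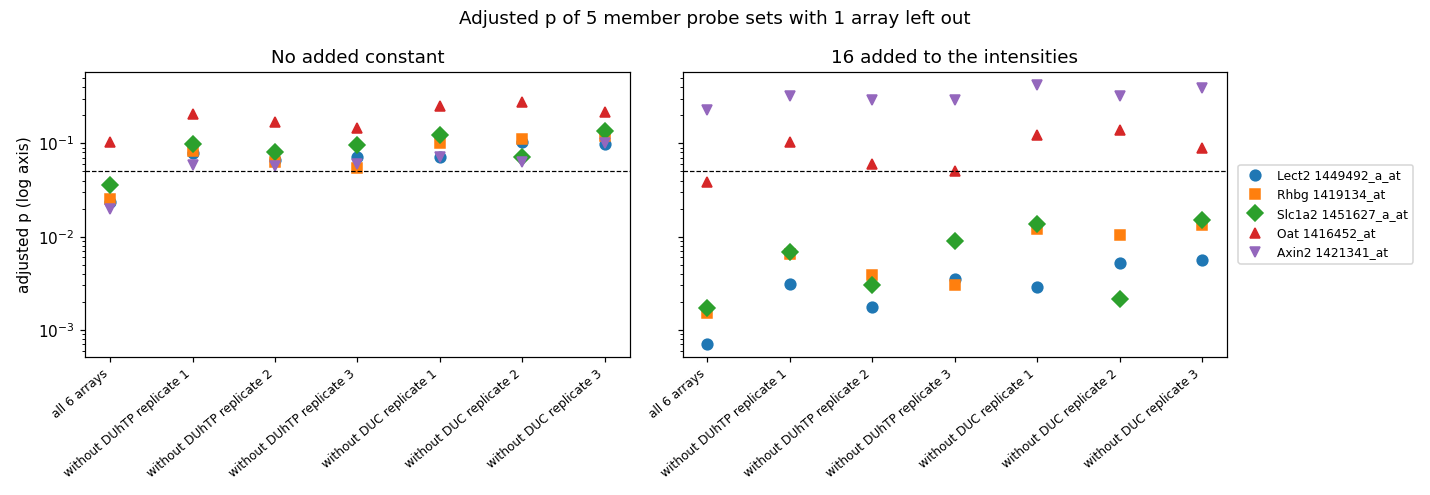
Adjusted p (log axis, dashed line at 0.05) of 5 member probe sets with all 6 arrays and with 1 array left out, without an added constant on the left and with 16 added on the right. Lect2, Rhbg and Slc1a2 rise above the line without any 1 array on the left and stay below it on the right.

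Other lists were counted by gene, with any of its probe sets. Of all 12393 genes, 3.32% were called, 11.3% were called with 16 added and 27.4% had an unadjusted p under 0.05. Among other genes known to be pericentral in mouse liver, 0 of 14 measured rose and 1 fell in limma. The gene that fell was Cyp7a1, the rate-limiting enzyme of bile acid synthesis. Its probe set 1438743_at read 283, 136 and 251 in DUhTP arrays, against 1190, 865 and 938 in DUC arrays, with a log2FC of -2.21 (adjusted p = 0.0320). The cytochrome P450 Cyp2e1 read 10970, 11320 and 12019 in DUhTP arrays, against 12191, 12246 and 11686 in DUC arrays, with a log2FC of -0.08 (adjusted p = 0.725). With 16 added 3 of the 14 rose: Gulo, an enzyme of vitamin C synthesis (log2FC 0.69 without the constant), Rgn, also of that pathway (0.66), and the dicarboxylate transporter Slc13a3 (0.68). Slc13a3 passed only on 1438377_x_at, 1 of its 4 probe sets. Without the constant the adjusted p was 0.0579 for Gulo and 0.0706 for Rgn. For this probe set of Slc13a3 it was 0.05002, just above the threshold. Cyp7a1 and Cyp27a1, another enzyme of bile acid synthesis, fell with 16 added. The median log2FC of the 14 genes was 0.12, beside 0.00 for all 12393 genes, with 8 genes above 0 and 6 below. At an unadjusted p under 0.05 were 8 of the 14, against 27.4% of all genes. Their summed intensity was 58688 to 60112 in DUhTP arrays and 54407 to 58218 in DUC arrays, without overlap. This sum is carried by bright genes such as Cyp2e1 (mean of all arrays 11739) and hardly by Cyp7a1 (611). How often such sums separate between the lines was not computed, so the sum is no result about the list.

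Of 15 measured periportal genes 0 rose and 1 fell in limma, and 4 fell with 16 added. The gene that fell was Pck1, which feeds oxaloacetate into gluconeogenesis (1423439_at, 3583, 3758 and 3729 in DUhTP arrays, against 6077, 6763 and 6333 in DUC arrays; log2FC -0.79, adjusted p = 0.0290). The further 3 with 16 added were Asl and Arg1 of the urea cycle and Pigr, with log2FC values of -0.66, -0.59 and -0.60 without the constant (adjusted p = 0.0645, 0.0843 and 0.133). Albumin (Alb), the periportal gene with the highest mean, had one of -0.03 (adjusted p = 0.878). At an unadjusted p under 0.05 were 8 of the 15, against 27.4% of all genes. Their summed intensity was 64359 to 69192.5 in DUhTP arrays and 78140 to 79796 in DUC arrays, without overlap. Here too the brightest genes weigh most, and the share of such sums that separate was not computed. The median over the 15 genes was -0.11, and the difference between the medians of the periportal and the pericentral list was not tested.

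In the remaining Wnt pathway lists 1 gene was called, 7 with 16 added and 8 with limma-trend. Some genes stand in more than 1 of these lists, so no total is set beside these counts. With limma-trend 2350 of all 22626 probe sets were called, and the share of genes was not computed. A list count near the shares of all genes given above is no result about the pathway. Of 23 measured Wnt ligands, R-spondins and their processing factors 0 passed in limma, although 2 had an unadjusted p under 0.05. The only R-spondins among them were Rspo1 and Rspo2, so the list gives no value for other R-spondins. Wnt2, a ligand of the central vein endothelium, read 51.9, 73.4 and 41.7 in DUhTP arrays, against 62.0, 56.1 and 51.7 in DUC arrays (log2FC -0.06, adjusted p = 0.909). Wnt9b, released by the same cells, had a log2FC of 0.20 (adjusted p = 0.540). The ligand with the smallest p was Wnt5b, at 48.2, 48.2 and 55.2 in DUhTP arrays on 1439373_x_at, against 30.9, 20.0 and 22.6 in DUC arrays. Its adjusted p was 0.0531, and 0.00851 with 16 added. The ligand with the highest mean was Wnt6, with a log2FC of 0.02 (adjusted p = 0.946).

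Of 16 measured receptors and coreceptors 0 passed in limma and 3 had an unadjusted p under 0.05. The brightest, Fzd4, had a log2FC of 0.01 (adjusted p = 0.988), and the ubiquitin ligase Rnf43, which removes Wnt receptors, had one of 0.48 (adjusted p = 0.261). With 16 added, the dim receptor Fzd5 was higher (adjusted p = 0.0394, and 0.0551 without the constant). It read 12.7, 7.20 and 14.7 in DUhTP arrays, against 4.09, 2.42 and 3.16 in DUC arrays. Ryk was lower with 16 added on 1426388_s_at (adjusted p = 0.00427, and 0.0504 without the constant). This probe set read 62.8, 39.3 and 42.1 in DUhTP arrays, against 98.0, 112 and 109 in DUC arrays. The other Ryk probe set, 1451789_a_at, did not pass (adjusted p = 0.217, and 0.0890 with 16 added). Of 14 cytoplasmic components 0 passed and 6 had an unadjusted p under 0.05, with a list median of -0.19. The brightest of them, the phosphatase subunit Ppp2r1a, had a log2FC of -0.14 (adjusted p = 0.497).

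Among 13 nuclear effectors 1 fell in limma, the corepressor Tle1. Only 1 of the 2 probe sets of Tle1 passed, also with 16 added. It read 309, 310 and 300 in DUhTP arrays on 1434033_at, against 505, 500 and 497 in DUC arrays (log2FC -0.71, adjusted p = 0.0310). The arrays of each line lay very close together and far from those of the other line. The brightest of the others, the corepressor Ctbp1, had a log2FC of -0.20 (adjusted p = 0.467). The coactivator Crebbp was lower only with 16 added (adjusted p = 0.0486), and did not pass without the constant (log2FC -0.75, adjusted p = 0.117). For Tcf7l2, a TCF factor of hepatocytes, the log2FC was 0.02 (adjusted p = 0.968). Of 15 Wnt inhibitors 0 passed and 3 had an unadjusted p under 0.05. The brightest, Nkd2, had a log2FC of 0.33 (adjusted p = 0.361). With 16 added Dkk3 was lower on its dim probe set 1417312_at (adjusted p = 0.0350, and 0.160 without the constant). The other Dkk3 probe set, 1448669_at, went the opposite way with a log2FC of 0.92 (adjusted p = 0.313), so the gene had no common direction. Of 11 general Wnt target genes 0 passed and 2 had an unadjusted p under 0.05. Myc, a transcription factor of cell growth, fell with 16 added (adjusted p = 0.0253) and had a log2FC of -0.80 without the constant (adjusted p = 0.0994), and Notum, a secreted Wnt deacylase and the brightest of the list, had one of 0.12 (adjusted p = 0.674).

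**Figure D4:**
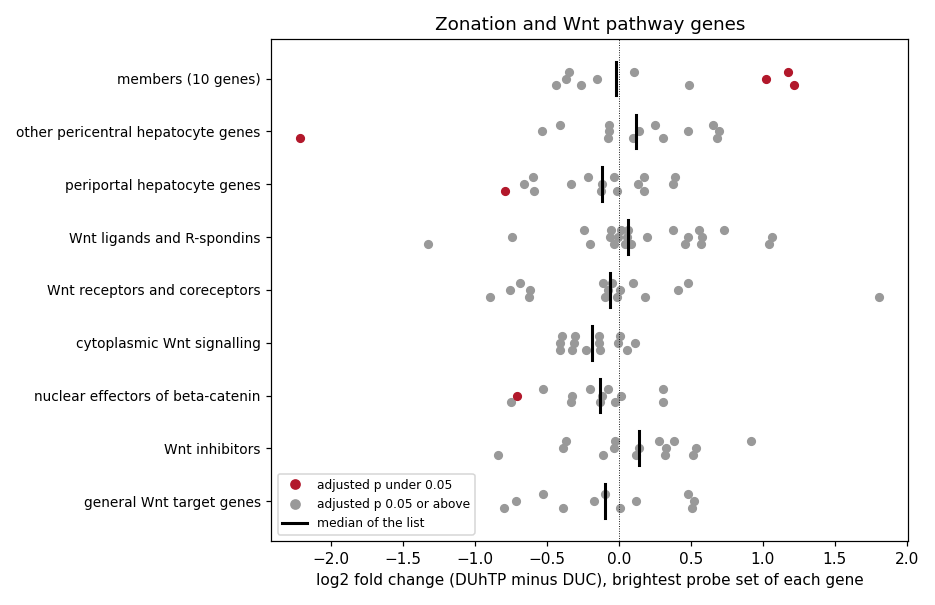
Log2FC (DUhTP minus DUC) of each measured gene on its brightest probe set, for the 10 members, the zonation lists and the Wnt pathway lists. Points are genes, in red where the adjusted p was under 0.05, and black bars are list medians, which lie between -0.19 and 0.14 for the lists other than the members.

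The correlation of log2 intensities was at least 0.959 among DUhTP arrays and 0.974 among DUC arrays, and between 0.950 and 0.963 across the lines. Hepatocyte markers had high values in all arrays. The summed intensity of the 6 measured ones was 60906 to 61783 in DUhTP arrays and 64609 to 67860 in DUC arrays, and Tat was called lower. At an unadjusted p under 0.05 were 2 of the 6. With 16 added Tat and Hnf4a were lower (Hnf4a 1427000_at, log2FC -0.66 and adjusted p = 0.0590 without the constant, adjusted p = 0.00948 with it). None of the listed cell type markers was at 0 in any array. This does not show that they were detected, because even the very dim Axin2 probe set 1421341_at read above 0. The summed levels of hepatocyte, Kupffer, stellate, endothelial and exocrine pancreas markers did not overlap between the lines. Those of hepatocyte and pancreas markers were lower in DUhTP arrays and those of the others higher. The brightest genes weigh most in these sums, and Alb is part of both the hepatocyte and the periportal sum. How often sums of other genes separate was not computed, while single probe sets did so in 29.4% of cases. Kupffer cell markers summed to 3044 to 3907 over 7 genes in DUhTP arrays and 2189 to 2976 in DUC arrays, with 1 of 7 called higher (Clec4f, adjusted p = 0.0320) and 6 at an unadjusted p under 0.05. With 16 added 4 were higher and 1 was lower, the scavenger receptor Marco (log2FC -0.60 and adjusted p = 0.0778 without the constant, adjusted p = 0.0434 with it). Cd5l had a log2FC of -0.01 (adjusted p = 0.988). Stellate cell markers summed to 1486 to 1738 over 8 genes in DUhTP arrays and 1364 to 1394 in DUC arrays, with 1 called higher (Col3a1, adjusted p = 0.0434) and 4 at an unadjusted p under 0.05. With 16 added 2 of the 8 were higher and 1 was lower. The lower one was Rgs5 on 1420941_at, at 75.9, 61.6 and 118 in DUhTP arrays, against 221, 221 and 202 in DUC arrays (log2FC -1.39 and adjusted p = 0.0543 without the constant, adjusted p = 0.00342 with it), while its brighter probe set 1417466_at had a log2FC of -0.27 (adjusted p = 0.611). Endothelial markers summed to 2985 to 3326 over 10 genes in DUhTP arrays and 2712 to 2891 in DUC arrays, with 0 called and 1 at an unadjusted p under 0.05. With 16 added 1 was higher, Stab2 (adjusted p = 0.123 without the constant, adjusted p = 0.0437 with it). Cholangiocyte markers summed to 149 to 189 over 6 genes in DUhTP arrays and 162 to 182 in DUC arrays. Of them 0 were called, also with 16 added, and 1 was at an unadjusted p under 0.05. Exocrine pancreas markers were at 1012 to 4255 over 9 genes in DUhTP arrays and 4883 to 9553 in DUC arrays, with 0 called and 6 at an unadjusted p under 0.05. With 16 added 5 of the 9 were lower, against 11.3% of all genes called in either direction. The list median of the log2FC was -2.55 without the constant, with 9 of 9 genes below 0. The part of these markers in the results of the members was not tested.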

How the data were processed

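Total liver RNA was hybridized to the Affymetrix expression arrays for mouse. Global scaling was done by the authors in GCOS 1.1.1, and their PLIER estimates, 1 linear intensity per probe set, are the deposited values. The PLIER version and an added constant are not given in the sources used here. After leaving out 64 control probe sets, 22626 were tested, of which 20380 carry 1 symbol in the array annotation. By gene number, 20351 of them matched RefSeq (GRCm38.p6) and 0 symbols changed.

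Intensities were logged to base 2 and fitted with lmFit and eBayes in limma 3.58.1 under R 4.3.3, with line as the only term and Benjamini-Hochberg adjustment over all probe sets. For list medians the probe set with the highest mean stood for its gene, and for counts any of its probe sets. The unit of replication is the array, and 3 per line limit the precision. The replicate numbers of the labels were not used as pairs. The alternatives were 16 added to the intensities, quantile normalization, leaving out the dimmest 33.3% of probe sets, limma-trend, array weights, a replicate block, leaving out probe sets ending in _x_at or _s_at, leaving out each array, the brightest probe set only and an FC over 2.

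The members and gene lists were chosen with earlier results of these data known. The named genes were all members, and from each other list up to 3 called genes and the brightest other gene; further list members were named after their values were seen.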

Additional observations from a re-analysis of the deposited data

How the results depend on the processing

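The count of 4 member probe sets and 4 member genes was also reached with 16 added, quantile normalization, limma-trend, array weights, without the dimmest 33.3% of probe sets and without probe sets ending in _x_at or _s_at, and all 4 probe sets had an FC over 2. On the brightest probe set only, 3 genes passed. Which probe sets passed changed: Oat took the place of Axin2 1421341_at with 16 added, with limma-trend and without the dimmest 33.3%, which keeps 13 of the 17 and leaves that Axin2 probe set out. Leaving out 1 array gave 0 member probe sets and 0 member genes, and 3 of each with 16 added. Over all probe sets the count was 546, and 1951 with 16 added, 1854 without the dimmest 33.3%, 2350 with limma-trend, 1 to 122 without 1 array, and 1591, 1570, 1530, 961 and down to 771 with 16 added and without 1 array.

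A replicate block gave 0 calls in limma over all 22626 probe sets, hence 0 member probe sets, 0 member genes and 0 genes of the lists, although 5 member probe sets and 4124 of all had an unadjusted p under 0.05. The labels do not say whether the numbers mean more than the order of the arrays. The deviations of same-numbered arrays correlated at 0.00341, 0.0048 and 0.0667, and 2 of 6 arrays, both with number 3, correlated best with their own number. With 3 arrays per line these values cannot tell whether same-numbered arrays were handled together.

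For the context lists together the count of called genes was 6. It was 32 with 16 added, 11 with quantile normalization, 25 without the dimmest 33.3%, 38 with limma-trend, 10 with array weights and 0 to 1 without 1 array. For the Wnt pathway lists the count was 1, and in the same order 7, 4, 6, 8, 2 and 0 to 1. For other pericentral genes it was 1 of 14 measured, and 5, 2, 5, 7, 3 and 0 to 1. For periportal genes it was 1 of 15 measured, and 4, 1, 4, 6, 1 and 0. For the glutamate list, added after seeing the data, it was 4 of 25 measured, and 8, 4, 8, 10, 4 and 0 to 3. Over all probe sets the count was 546, and in the same order 1951, 684, 1854, 2350, 690 and 1 to 122. Fewer than 22626 were tested without the dimmest 33.3%. The share of all genes called was 3.32%, and 11.3% with 16 added. It was not computed for the other settings.

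The sign changed in 3 probe sets with a log2FC near 0. Apc 1450056_at turned to 0.0693 with array weights and ranged between -0.13 and 0.18 without 1 array (-0.06 to 0.083 with 16 added, and 0.0694 without DUC replicate 1). Apc 1420957_at ranged between -0.32 and 0.0894 (-0.16 to 0.053), and Tbx3 1439567_at between -0.25 and 0.13 (-0.14 to 0.0708). The cause of these changes was not tested. Dim probe sets, such as those of Axin2, Lgr5 and Apc, carry too little signal to settle small differences with 3 arrays per line.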

Other observations

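Genes of glutamate, glutamine, ornithine and ammonium handling other than the members were examined because Glul, Oat, Rhbg and Slc1a2 act there. This list of 29 genes was written after the values of the members were seen. Of 25 measured, 1 rose and 3 fell in limma, against 3.32% of all genes called, and with 16 added 2 rose and 6 fell, against 11.3%. Without 1 array the count of 4 was 0 to 3, and Gclc passed in none of these fits. The median log2FC was -0.23, beside 0.00 for all genes. Gclc, the catalytic subunit of the enzyme that joins glutamate and cysteine for glutathione, rose. It read 3374, 3200 and 3625 in DUhTP arrays on 1424296_at, against 1945, 2086 and 2079 in DUC arrays (log2FC 0.74, adjusted p = 0.0335).

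The genes that fell were Got1, the cytosolic aspartate transaminase, Gpt2, the mitochondrial alanine transaminase, and Slc7a2, a transporter of arginine, lysine and ornithine. All 3 probe sets of Slc7a2 passed, and 1422648_at read 371, 369 and 373 in DUhTP arrays, against 842, 877 and 886 in DUC arrays (log2FC -1.23, adjusted p = 0.0103). Gpt2 also passed on all 3 of its probe sets, with log2FC values of -1.10 on 1434542_at, -0.91 on 1438385_s_at and -1.09 on 1455007_s_at (adjusted p = 0.0499, 0.0290 and 0.0200). Glud1, the glutamate dehydrogenase, had a log2FC of -0.05 (adjusted p = 0.838). The glutamate transporter Slc1a3, related to Slc1a2, was dim and read 11.6, 4.61 and 4.08 in DUhTP arrays, against 25.3, 24.96 and 22.7 in DUC arrays. It did not pass without a constant (adjusted p = 0.0676) and passed with 16 added (0.00630).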
